A study of Mus musculus with 40 samples.

Results

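Serpinb2 and Slpi, which encode inhibitors of serine proteases, were described across 40 mouse RNA samples in 14 groups, each hybridized to 1 nylon filter of 5760 cDNA spots. They were chosen by gene symbol: 1 spot carries the single symbol Serpinb2 and 1 carries Slpi, so that the pair makes up 2 of 5760 spots. Both were singled out because their levels stood out when peritoneal macrophages, stroma-vascular cells and adipocytes were compared in earlier results of these data. The 9 comparisons that use those 9 arrays are therefore descriptions without a test, and the 10 comparisons among the other 31 arrays were tested.

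The groups from animals were peritoneal macrophages (3 samples, the cells washed from the peritoneal cavity that adhered over 24 h of plating), stroma-vascular cells (3, the adherent cells of collagenase-digested inguinal white fat after 24 h of plating), adipocytes (3, fat cells freed from the same depot by collagenase and washed), tibialis muscle (2) and liver (2). The macrophage lines were Raw 264 (3) and J774 (2), grown sparse and unstimulated as far as the labels say. Preadipocyte lines, which can turn into fat cells, were 3T3-L1 (2), 3T3-F442A (1), Ob1774 (1) and Hgfu (1), all proliferating, and 3T3-F442A was also taken 7 days after confluence with rosiglitazone, a PPARγ agonist (3). The remaining groups were C3H-10T1/2, a mesenchymal stem cell line (3), C2C12 myoblasts proliferating (3) and after 7 days in horse serum (2), and ZIN40 embryonic stem cells with the cytokine LIF (3) and without it (3). No strain, age, sex or genotype was given, and each cell line is 1 line with its own history. Nothing states whether numbered samples came from separate animals or cultures, so the spread may be technical.

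Serpins trap their protease in a one-way reaction in which the inhibitor is cleaved and spent. Serpinb2 encodes plasminogen activator inhibitor type 2, a clade B serpin that inhibits urokinase and tissue plasminogen activator, is held largely inside the cell and is known in activated monocytes and macrophages. Slpi encodes secretory leukocyte protease inhibitor, a small secreted protein of whey acidic protein domains that blocks neutrophil elastase, cathepsin G and mast cell chymase, and is known as a brake on the response of macrophages to lipopolysaccharide.

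The sequence upstream of each gene start is shown because both spots were brightest in the same group. The windows are the 250 bases before the start in RefSeq, build GRCm38.p6, read on the strand of the gene. Capitals mark matches to the searched letters, which were TATAAA (the TATA box), TGANTCA (the AP-1 site), CACGTG (an E-box) and GAGGAA (the letters bound by PU.1, the macrophage ETS factor), each on both strands.

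Serpinb2, chr1:107511173-107511422, plus strand: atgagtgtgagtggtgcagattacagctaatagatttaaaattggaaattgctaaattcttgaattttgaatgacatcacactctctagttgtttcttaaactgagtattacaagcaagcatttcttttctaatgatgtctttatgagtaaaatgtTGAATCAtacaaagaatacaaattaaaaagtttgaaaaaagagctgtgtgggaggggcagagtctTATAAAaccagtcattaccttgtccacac

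Slpi, chr2:164356508-164356757, minus strand: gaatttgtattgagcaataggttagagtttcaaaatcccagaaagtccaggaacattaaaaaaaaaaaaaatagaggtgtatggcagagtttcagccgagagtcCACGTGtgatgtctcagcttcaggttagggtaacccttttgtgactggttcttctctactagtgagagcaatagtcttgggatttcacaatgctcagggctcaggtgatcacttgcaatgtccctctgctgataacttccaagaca

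The Serpinb2 window, the first of 2 RefSeq entries for that gene, held TATAAA from -29 to -24 and TGANTCA from -94 to -88 relative to the gene start. The Slpi window held CACGTG from -146 to -141. GAGGAA was found in neither window. Among 32851 mouse promoters of the same length, TATAAA was found in 12.4%, TGANTCA in 6.75%, CACGTG in 6.02% and GAGGAA in 23.3%. The pair thus shared none of the 4 motifs, and a match to these letters is a description and not a site. In the RefSeq order Serpinb2 lies between the serpin genes Serpinb7 and Serpinb10, and Slpi between Svs5 and Matn4. None of these 4 neighbours had a spot on the filter.

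Levels are given as log2 of the quantile-normalized intensity plus 36370, an offset equal to the intensity at the 10th percentile after normalization. The offset makes every fold change smaller than the intensity ratio, most of all for dim spots. The brightness of a spot also depends on its probe, so the levels of the 2 genes are not set against each other.

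Serpinb2 was highest in peritoneal macrophages, where the 3 samples read 17.86, 17.86 and 18.01. Their deposited intensities were 136480, 225643 and 328007, or 3.10 to 4.46 times the median spot of the same array. Stroma-vascular cells came next, at 17.20, 17.23 and 17.27 and 1.67 to 3.11 times the median spot. Adipocytes, from the same fat depot, read 16.01, 16.14 and 16.15, which was 0.535 to 0.648 times the median spot.

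The Serpinb2 arrays of the 3 groups did not overlap. In the other groups Serpinb2 lay at 0.389 to 1.32 times the median spot. J774 read 16.44 and 16.41, and Raw 264 read 16.29, 16.37 and 16.45. In preadipocytes the 2 3T3-L1 samples gave 16.28 and 16.13, 3T3-F442A 16.08, Ob1774 16.17 and Hgfu 16.21. The 5 preadipocyte readings all lay below the lowest stroma-vascular reading.

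Among the remaining cultures, 3T3-F442A at day 7 had Serpinb2 at 16.27, 16.39 and 16.28. C3H-10T1/2 cells had 16.38, 16.39 and 16.16. Proliferating C2C12 cells had 16.04, 16.39 and 16.29. Differentiated C2C12 cells had 16.51 and 16.13, which enclose 2 of the 3 proliferating readings. Tibialis muscle had Serpinb2 at 16.10 and 16.16. Liver had 16.20 and 16.60, the widest group in standard deviation at 0.28. ZIN40 cells gave 15.94, 16.29 and 15.96 with LIF and 16.51, 16.40 and 16.19 without it.

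In the order of group means, Serpinb2 ran from macrophages at 17.91 ± 0.09 (SD, n = 3) and stroma-vascular cells at 17.23 ± 0.04 (SD, n = 3) to J774 at 16.42 ± 0.02 (SD, n = 2). The gap from macrophages to stroma-vascular cells was 0.68 and that from stroma-vascular cells to J774 was 0.81. From J774 down to ZIN40 with LIF, at 16.07 ± 0.19 (SD, n = 3), every group overlapped its neighbour in the order. Groups further apart in it did not always overlap, as with liver above tibialis muscle and liver above adipocytes.

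Slpi was also highest in peritoneal macrophages, at 18.46, 18.12 and 18.10. Its deposited intensities there were 201724, 289404 and 377238, or 3.97 to 5.79 times the median spot. Stroma-vascular cells read 16.49, 16.65 and 16.53, and adipocytes 16.20, 15.92 and 15.98. All 3 stroma-vascular arrays thus lay above all 3 adipocyte arrays for Slpi too, but they lay at 1.04 to 1.40 times the median spot.

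Among the cultured cells J774 macrophages had the highest group mean for Slpi too, at 16.99 and 16.76. Raw 264 macrophages had 16.68, 16.33 and 16.23. Of the preadipocyte lines, Ob1774 read 17.19 and Hgfu 17.01, the single highest readings outside the peritoneal macrophages. The 3T3 lines were lower, with 16.50 and 16.33 in 3T3-L1 and 16.63 in 3T3-F442A. Each of Ob1774, Hgfu and 3T3-F442A was measured on 1 array, so a difference between lines has no replicate check.

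Day 7 3T3-F442A cells had Slpi at 16.32, 16.60 and 16.58. C2C12 cells had 16.31, 16.15 and 16.24 while proliferating and 16.31 and 16.32 after differentiation. C3H-10T1/2 cells had 16.14, 16.21 and 16.12, below all 5 preadipocyte samples. Tibialis muscle read 16.04 and 16.23, and liver 16.11 and 16.39. ZIN40 cells read 16.01, 16.19 and 16.15 with LIF and 16.25, 16.23 and 16.02 without it.

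By group mean, Slpi was ordered from macrophages at 18.22 ± 0.20 (SD, n = 3) to J774 at 16.87 ± 0.17 (SD, n = 2), preadipocyte lines at 16.81 ± 0.35 (SD, n = 4 lines) and stroma-vascular cells at 16.56 ± 0.08 (SD, n = 3). Only the gap of 1.35 between macrophages and J774 was free of overlap. All later neighbours overlapped, down to adipocytes at 16.03 ± 0.15 (SD, n = 3).

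**Figure D1:**
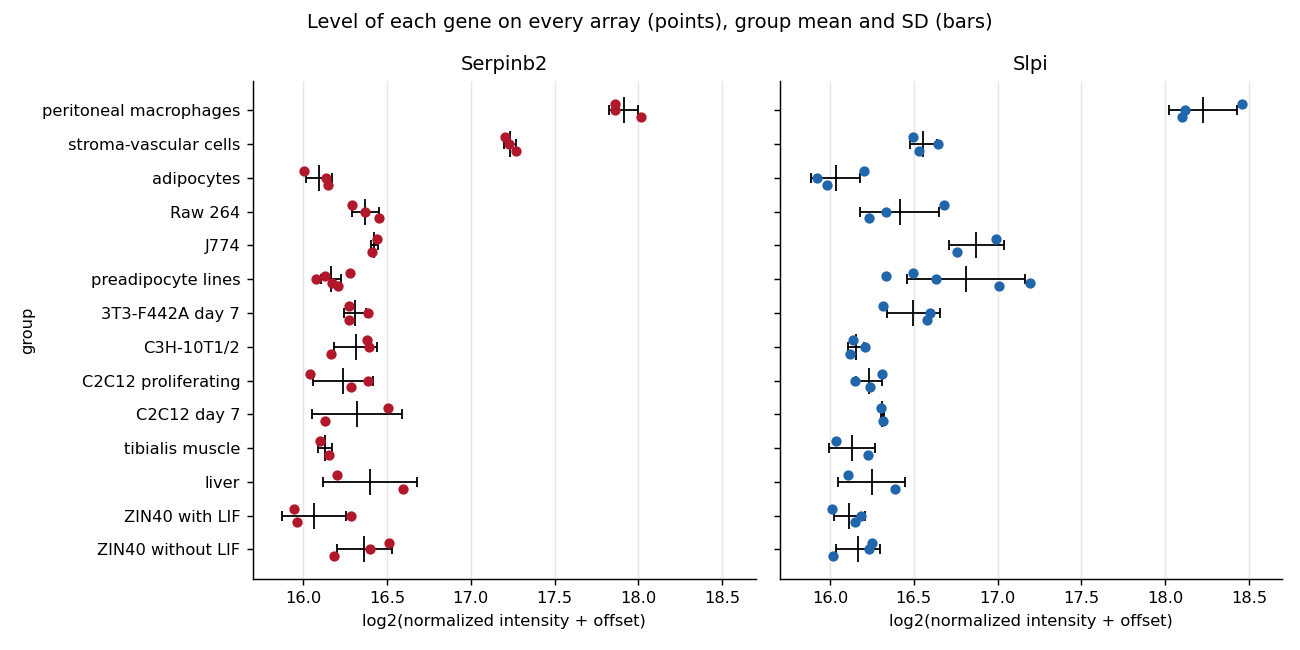
Log2 level of Serpinb2 (left) and Slpi (right) on the horizontal axis for each of the 14 groups on the vertical axis; points are the 40 arrays, and bars give the group mean and SD, with the 2 3T3-L1 arrays averaged before the preadipocyte mean. The macrophage points lie at 17.86 to 18.01 and 18.10 to 18.46, stroma-vascular cells are set apart from the other groups for Serpinb2 and not for Slpi, and the preadipocyte points are widely spread for Slpi alone.

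Few spots were as sharply set apart. On 12 of 5760 spots (0.208%) all 3 macrophage arrays lay above the other 37 arrays, and Serpinb2 and Slpi were both among them. The distance from the lowest macrophage array to the highest other array was 0.91 for Slpi, the largest of the 12. A spot without a symbol came next at 0.79, and Serpinb2 had 0.59. Mpeg1, which encodes the pore-forming macrophage protein perforin-2, had 0.54 and Srgn, the proteoglycan serglycin, 0.49. On 2 spots (0.0347%) the macrophage and stroma-vascular arrays together lay above the other 34, and these were Serpinb2, with a distance of 0.61, and Hgsnat, a lysosomal acetyltransferase, with 0.0024. Since both genes were noticed in these arrays, the counts describe them and test nothing.

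**Figure D2:**
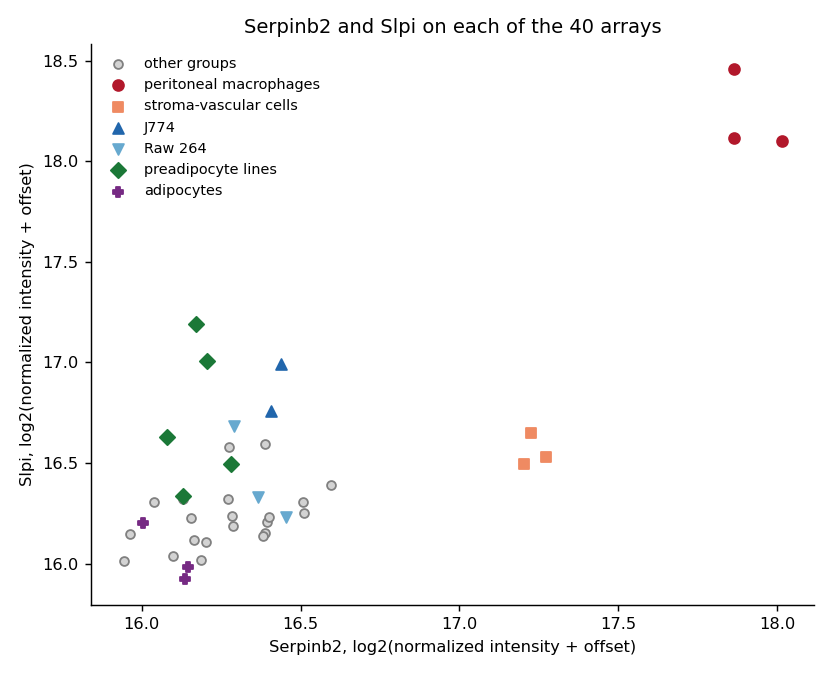
Each point is 1 of the 40 arrays, with its Serpinb2 log2 level on the horizontal axis and its Slpi log2 level on the vertical axis; colours and shapes mark 6 groups and grey circles the rest. Macrophages are high for both genes, stroma-vascular cells are displaced along the Serpinb2 axis at a Slpi level of 16.49 to 16.65, and Ob1774, Hgfu and J774 are displaced along the Slpi axis at a Serpinb2 level of 16.17 to 16.44.

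Within inguinal fat, stroma-vascular cells had Serpinb2 higher than adipocytes by 1.14 ± 0.11 (log2 fold change ± SE), or 2.20-fold, and Slpi by 0.52 ± 0.14, or 1.44-fold. The arrays of the 2 groups did not overlap for either gene, which held in that direction for 9.17% of all spots. Peritoneal macrophages had Serpinb2 above stroma-vascular cells by 0.68 ± 0.11, or 1.60-fold, and Slpi by 1.67 ± 0.14, or 3.18-fold. Again neither gene overlapped, as for 7.47% of spots. Macrophages and adipocytes were 1.82 ± 0.11 apart in Serpinb2 and 2.19 ± 0.14 apart in Slpi, without overlap (9.44% of spots). Stroma-vascular cells thus lay nearer to macrophages in Serpinb2 and nearer to adipocytes in Slpi, and the difference between the genes was not tested. For orientation, 0.625% of spots passed an adjusted p of 0.05 for stroma-vascular cells against adipocytes and 0.451% for macrophages against stroma-vascular cells, and nothing is read from these shares because the genes were chosen there. Fewer cells of a type and less RNA per cell cannot be told apart in such bulk samples.

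Against cultured lines, macrophages had Serpinb2 higher than the mean of Raw 264 and J774 by 1.52 ± 0.10 and Slpi by 1.58 ± 0.13, without overlap (6.28% of spots; 2.9% of spots passed the test in either direction). Against preadipocyte lines the differences were 1.75 ± 0.11 for Serpinb2 and 1.41 ± 0.14 for Slpi, also without overlap (4.38% of spots). Stroma-vascular cells exceeded preadipocyte lines in Serpinb2 by 1.07 ± 0.11 without overlap (3.44% of spots), whereas their Slpi difference was -0.26 ± 0.14 with overlapping arrays. Both genes were lower in adipocytes than in day 7 3T3-F442A cells, at -0.22 ± 0.11 and -0.46 ± 0.14, with no overlap (12.5% of spots). Adipocytes and liver differed by -0.30 ± 0.13 in Serpinb2, without overlap (17.7% of spots), and -0.21 ± 0.16 in Slpi, and adipocytes and tibialis muscle by -0.03 ± 0.13 and -0.10 ± 0.16. These comparisons share arrays with each other.

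The labelled macrophages and fat cells were set against marker lists. Of 25 listed macrophage markers, 5 had a spot (Cybb, Fcer1g, Itgb2, Mpeg1 and Vav1). Of these 5, 4 (all but Vav1) passed the test as higher in macrophages than in stroma-vascular cells, as did 0.278% of all spots. The summed normalized intensity of the 5 was 814214 to 1036675 in macrophages, 468394 to 849233 in Raw 264 and 377661 to 386427 in J774. It was 303573 to 327777 in stroma-vascular cells and 289633 to 316447 in adipocytes. Between stroma-vascular cells and adipocytes, where Serpinb2 differed by 1.14, none of the 5 passed, and their differences ran from -0.06 ± 0.12 for Vav1 to 0.16 ± 0.18 for Itgb2. By mean rank within the array the 5 markers lay at percentiles 61 to 63.9 in stroma-vascular cells and 54.1 to 57.9 in adipocytes, without overlap. The part of macrophage markers in the results for Serpinb2 and Slpi was not tested.

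Of the other cell types that could be present, mast cells (Cma1 and Mcpt4), B cells (Cd79b and Blk), mesothelium (Upk1b and Lrrn4), epithelium (Cdh1, Cldn3 and Grhl2) and endothelium (Cdh5, Eng and Sox17) had no marker that passed in either of these comparisons. Among these the endothelial cadherin gene Cdh5 had the lowest adjusted p, at 0.44 ± 0.14 for stroma-vascular cells over adipocytes (adjusted p = 0.180). The other endothelial genes in that comparison were Eng, at 0.28 ± 0.13, and Sox17, which went the other way at -0.17 ± 0.13. Of 22 listed fibroblast and matrix genes, Timp2 and Mmp2 had a spot and neither passed, at 0.67 ± 0.32 (adjusted p = 0.534) and -0.05 ± 0.13 for stroma-vascular cells over adipocytes. The summed intensity of these 2 was 146100 to 229459 in stroma-vascular cells, 128594 to 135133 in adipocytes and 113731 to 233052 in macrophages. Stroma-vascular cells and adipocytes thus did not overlap in this sum, as for 9.17% of single spots in that direction. Mmp2 differed in the other direction from Timp2, so the separation does not describe both genes. The part of Cdh5 and of these matrix genes in the results was not tested. Of 6 adipocyte markers, 2 passed as lower in stroma-vascular cells than in adipocytes, the hormone gene Retn and the lipase gene Pnpla2, as did 0.174% of all spots. Neutrophil markers had no spot on the filter under the symbols searched.

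The tested comparisons hold no array of peritoneal macrophages, stroma-vascular cells or adipocytes, in which the genes were noticed. They are not independent of the choice, because earlier results of these data were known and normalization and spread came from all 40 arrays. Outside those groups 31 arrays remain, of which the ZIN40 arrays without LIF entered no test. The comparisons gave 20 tests of Serpinb2 or Slpi. Of these, 0 passed an adjusted p of 0.05 in limma, and 5, all of them Slpi, had an unadjusted p under 0.05. Apart from the comparison between the macrophage lines, these 5 all had the same preadipocyte arrays in the second group. They are therefore not separate findings. The first question was whether established macrophage lines carried either inhibitor above mesenchymal lines, taken as preadipocyte lines and C3H-10T1/2 with equal weight. Serpinb2 differed by 0.16 ± 0.08 (adjusted p = 0.426, 95% interval -0.01 to 0.33) and Slpi by 0.16 ± 0.11 (adjusted p = 0.534, 95% interval -0.05 to 0.38). In this comparison 1.08% of all spots passed and 13.4% had an unadjusted p under 0.05 in limma. On the same arrays the Fc receptor chain gene Fcer1g was higher by 1.13 ± 0.14 (adjusted p = 6.87e-06), the 1 of 5 macrophage markers that passed.

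Between the macrophage lines, Slpi was lower in Raw 264 than in J774 at -0.46 ± 0.16 (adjusted p = 0.333). The arrays did not overlap, which held in that direction for 14.8% of spots, and 0.104% of spots passed the test. With a local trend along the spot table removed, a step added after seeing the data, the difference was -0.64 with an adjusted p of 0.0378. Under the 15 other alternatives run for Slpi here the adjusted p was 0.208 to 0.897. Serpinb2 differed by -0.05 ± 0.13 between the lines (adjusted p = 0.917).

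The Slpi difference nearest to the threshold was that between C3H-10T1/2 and the preadipocyte lines, at -0.66 ± 0.14 (adjusted p = 0.0586, 95% interval -0.93 to -0.38). No C3H-10T1/2 array reached the lowest preadipocyte array, as for 2.26% of spots in that direction, and 0.0174% of spots passed the test. It passed with a floor in place of the offset (-1.05, adjusted p = 0.0152), with a trended and robust variance model (adjusted p = 0.0290), among spots brighter than the median spot (adjusted p = 0.0469), and without the second 3T3-L1 sample (-0.67, adjusted p = 0.0251). In the other 15 of 19 alternatives it missed the threshold, with adjusted p from 0.0641 to 0.9995. Among these were median scaling (-0.55, adjusted p = 0.9973), no scaling (-0.41, adjusted p = 0.9995), the compared groups alone (adjusted p = 0.891) and all 5 preadipocyte samples as replicates (-0.58, adjusted p = 0.113). Without Ob1774 the difference was -0.53. Serpinb2 differed by 0.15 ± 0.11 in the same comparison (adjusted p = 0.672) and the arrays overlapped.

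Neither gene passed the threshold in the comparisons of differentiated with undifferentiated cultures. The preadipocyte lines hold 3T3-F442A on a single array only, so line and differentiation cannot be told apart there. In 3T3-F442A at day 7 against preadipocyte lines, Slpi differed by -0.31 ± 0.14 (adjusted p = 0.410) and Serpinb2 by 0.15 ± 0.11 (adjusted p = 0.703), where 0.156% of spots passed. The Slpi difference was -0.19 without Ob1774, and the undifferentiated 3T3-F442A array, at 16.63, lay close to the day 7 mean of 16.50 ± 0.16 (SD, n = 3). For Serpinb2 that array read 16.08, below the day 7 mean of 16.31 ± 0.07 (SD, n = 3). In C2C12 at day 7 against proliferating cells, each gene differed by 0.08 (adjusted p = 0.913 for Serpinb2 and 0.928 for Slpi), where 0.226% passed. The 2 comparisons differed from each other by 0.06 ± 0.17 in Serpinb2 (adjusted p = 0.940) and by -0.39 ± 0.21 in Slpi (adjusted p = 0.549).

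Day 7 fat and muscle cultures differed by -0.01 in Serpinb2 (adjusted p = 0.991) and 0.19 in Slpi (adjusted p = 0.810), where 0.625% of spots passed. Tibialis muscle and C2C12 at day 7 differed by -0.19 (adjusted p = 0.792) and -0.18 (adjusted p = 0.884), where 0.92% passed. The Serpinb2 value was -0.0017 without the first C2C12 sample and -0.38 without the second. The Slpi arrays of these 2 groups did not overlap, as for 18.5% of spots in that direction. Liver and tibialis muscle differed by 0.27 in Serpinb2 (adjusted p = 0.357) and 0.12 in Slpi (adjusted p = 0.815), where 1.88% passed. Both liver arrays lay above both muscle arrays for Serpinb2, as for 22.6% of spots, and the difference was 0.47 without the first liver sample and 0.08 without the second. Without scaling between arrays both signs turned, to -1.21 (adjusted p = 0.0169) and -1.30 (adjusted p = 0.00799), in a setting where the median of all spots was -1.53 and 5632 spots passed. Relative to that median neither gene was lower.

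Against the mesenchymal lines, proliferating C2C12 cells differed by -0.00 in Serpinb2 (adjusted p = 0.9995) and -0.25 in Slpi (adjusted p = 0.609), where 0.174% of spots passed. ZIN40 cells with LIF differed by -0.17 (adjusted p = 0.9986) and -0.37 ± 0.12 (adjusted p = 0.483), where 0.226% passed. A missed threshold with 2 to 4 samples in a group does not show equal levels.

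**Figure D3:**
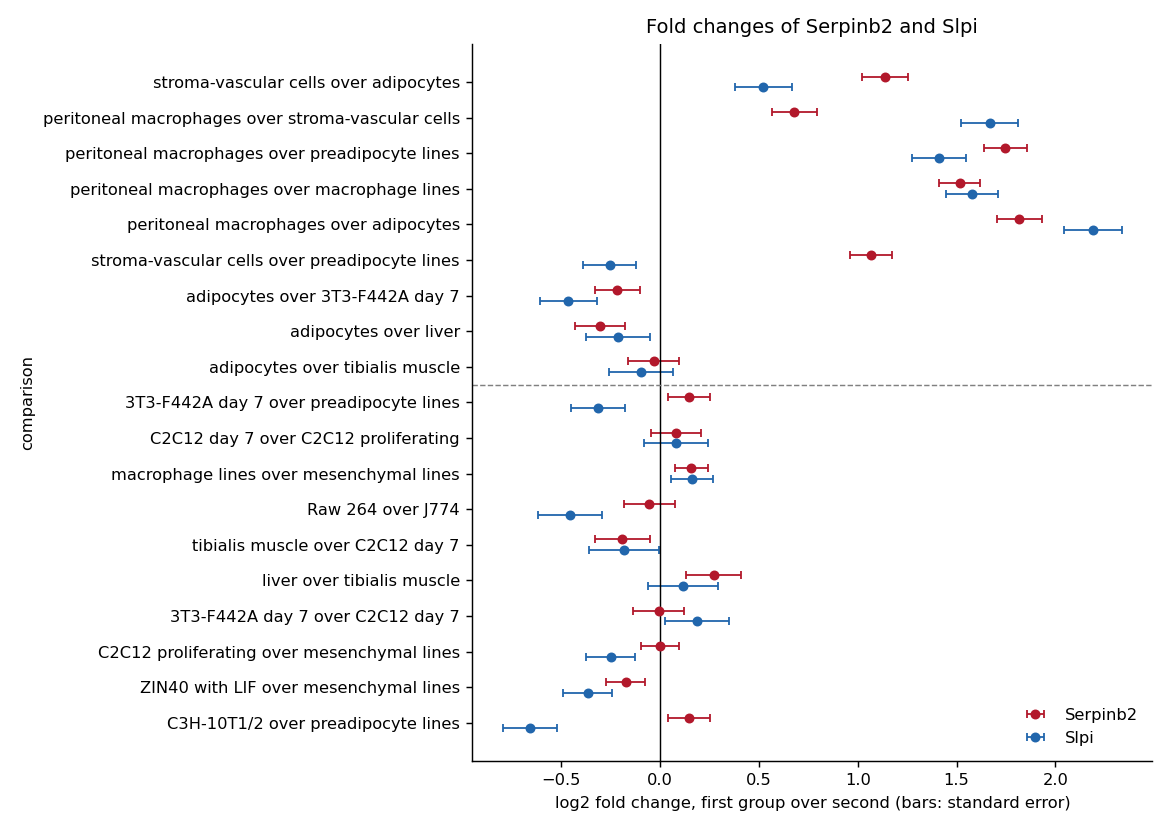
Log2 fold change of the first-named group over the second (horizontal axis) in each of the 19 comparisons (vertical axis), for Serpinb2 (red) and Slpi (blue), with bars of 1 standard error; comparisons above the dashed line use the arrays in which the genes were noticed and have no test, and those below it were tested. Values of 0.68 to 1.82 for Serpinb2 and 0.52 to 2.19 for Slpi occur where macrophages or stroma-vascular cells are set against adipocytes or each other, and all tested values lie between -0.66 and 0.27.

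Other genes of the same and related families were sparse on the filter. The lists follow family and name, so a listed gene need not itself inhibit a protease or be one. Serpins had 4 of 44 listed genes (Serpina12, Serpinb1c, Serpinb9 and Serpinh1), and whey acidic and Kunitz inhibitors had 4 of 30, among them Wfdc2 and Wfdc18, relatives of Slpi. Cystatins and other inhibitors had 2 of 18. Of lists drawn up around their usual targets, plasminogen activation had 3 of 22 and white cell serine proteases 3 of 30. Cathepsins and metalloproteinases had 8 of 39. The 3 of the plasminogen activation list were F2r, Thbd and Fgb, which encode no protease. Neither urokinase nor its receptor had a spot, so that list does not measure plasminogen activation.

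None of these 24 genes passed for stroma-vascular cells against adipocytes or for macrophages against stroma-vascular cells, at an adjusted p of 0.05 in limma, and 6 and 5 of the 24 had an unadjusted p under 0.05, beside 9.01% and 5.38% of all spots. The 4 other serpins had a median difference of 0.21 for stroma-vascular cells over adipocytes and -0.22 for macrophages over stroma-vascular cells, beside -0.02 and 0.00 for all spots. Of these serpins Serpinh1 differed most, with means of 16.833 in stroma-vascular cells, 16.234 in adipocytes and 16.251 in macrophages. Serpina12 went the other way, at 16.291, 16.295 and 16.372. The whey acidic and Kunitz list had medians of -0.11 and 0.01 in the same comparisons. Cystatins and other inhibitors, with 2 genes, had 0.24 and 0.16, and white cell serine proteases 0.02 and -0.07. The plasminogen activation list, with only F2r, Thbd and Fgb, had 0.21 and -0.24, and cathepsins and metalloproteinases -0.04 and 0.08.

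In macrophage lines against mesenchymal lines, 2 of the 24 passed, beside 1.08% of all spots, both in the last list. Ctsc, the dipeptidyl peptidase that activates granule serine proteases, was higher by 0.40 ± 0.10 (adjusted p = 0.0388). It read 17.03, 16.71 and 16.80 in Raw 264 and 16.56 and 16.58 in J774, and 15.99 to 16.57 in the 5 preadipocyte samples. Mmp2, a gelatinase of stromal cells, differed by -0.40 ± 0.10 (adjusted p = 0.0388), with 16.31, 16.23 and 16.38 in Raw 264 and 16.36 and 16.71 in J774 against 16.80, 16.90 and 17.24 in C3H-10T1/2 and 16.56 to 16.80 in preadipocytes. The J774 and preadipocyte arrays overlapped for both genes. Neither passed with median scaling, with no scaling or without the ZIN40 arrays lacking LIF. Outside these comparisons, and chosen after its values were seen, the cathepsin gene Ctsb was higher in peritoneal macrophages than in the macrophage lines by 0.40 ± 0.11 (adjusted p = 0.0326), with no such call under median scaling or no scaling. Ctsb also passed in limma for peritoneal macrophages over adipocytes, at 0.55 ± 0.12 (adjusted p = 0.0143), where listed genes were not counted under other settings. In liver against tibialis muscle the plasma protein genes Pzp, Itih2 and Fgb passed, at 1.77 ± 0.34, 0.86 ± 0.23 and 1.38 ± 0.30, beside 1.88% of all spots. Neither Serpinb2 nor Slpi passed there, and with median scaling fewer of the listed genes did.

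The genes whose 13 group means followed Serpinb2 most closely, among 3419 other spots with 1 symbol, were Ms4a6d (Pearson r = 0.940), Mpeg1 (0.857), Srgn (0.848), Slpi (0.835), Hgsnat (0.830) and Itgb2 (0.804), the integrin β2 chain of white cells. For Slpi they were Mpeg1 (r = 0.892), Ms4a6d (0.849), Serpinb2 (0.835), Itgb2 (0.834), the chemokine gene Ccl9 (0.833) and Zfp575 (0.830). Each member was thus among the 6 nearest of the other, with a Spearman rho of 0.747 and, over 37 single arrays, r = 0.785. All these genes peaked in peritoneal macrophages. Over the 12 groups without them, r with Serpinb2 was 0.797 for Ms4a6d, 0.421 for Mpeg1 and 0.376 for Slpi, and r with Slpi was 0.389 for Mpeg1, 0.369 for Ms4a6d and 0.598 for Ccl9. By Spearman correlation 0 of the 6 nearest of Serpinb2 and 2 of those of Slpi stayed, and over single arrays 5 and 4 did. The points share the filters and their normalization, and Mpeg1 with Srgn and Ccl9 with Zfp575 are neighbours in the spot table. Serpinb2 and Slpi were chosen for their levels in macrophages, stroma-vascular cells and adipocytes, which are among these points. The 12 groups without macrophages still hold stroma-vascular cells and adipocytes. The likeness of the pair to each other is therefore a description and not a test.

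Ms4a6d, a membrane protein of myeloid cells, had group means of 17.78 in macrophages, 17.19 in stroma-vascular cells and 16.62 in adipocytes. Raw 264 came next for Ms4a6d at 17.08, followed by 3T3-F442A at day 7 with 16.89, J774 with 16.85 and C3H-10T1/2 with 16.81. Ccl9 had 17.48 in stroma-vascular cells and 16.73 in adipocytes. Mpeg1 had 16.82 in both stroma-vascular cells and adipocytes. The spots directly before and after Serpinb2 and Slpi in the table, 2 on each side, differed by -0.05 to 0.20 between macrophages and stroma-vascular cells and by 0.08 to 0.26 between stroma-vascular cells and adipocytes.

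**Figure D4:**
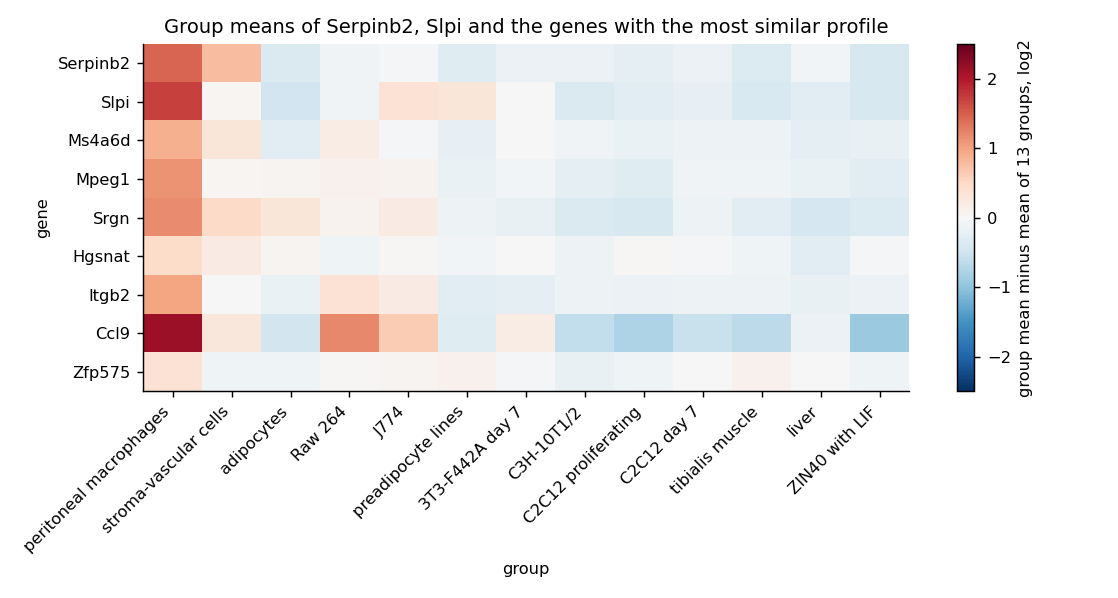
Group means of Serpinb2, Slpi and the genes with the most similar profile (rows) in 13 groups (columns), coloured by the difference in log2 from the mean of the gene over those groups. Every row is reddest in peritoneal macrophages, Serpinb2 has its second highest value in stroma-vascular cells, and the next values of Slpi after macrophages are those of J774 and the preadipocyte lines.

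The 3 arrays of ZIN40 without LIF held values of another kind, with the 99th percentile at 60 to 391 times the median spot against 3.87 to 17.5 times on the other 37 arrays, and they enter none of the 19 comparisons but are part of the normalization, of the spread in the fit and of the counts over the other 37 and 34 arrays. Median intensities of the other arrays ran from 18870.5 to 132228, and no file gave a background or detection value, so whether a dim Serpinb2 or Slpi spot lies above background is not known. The number of arrays limits the precision.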

How the data were processed

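RNA was labelled with 33P as cDNA and hybridized to nylon filters, per the labels. The authors quantified the spots with Imagene, per the labels, and deposited 1 linear intensity per spot and sample; the sources used here state no background handling, scaling or genome build. Of 5760 spots, 3420 have 1 gene symbol in the platform annotation, 98 several and 2242 none, and 3346 matched RefSeq. The intensities were quantile-normalized over 40 arrays and log2-transformed after adding 36370, their 10th percentile. The 2 3T3-L1 samples were averaged, giving 39 columns. All 14 groups were fitted together in limma 3.58.1 (R 4.3.3) with 25 residual degrees of freedom, with two-sided tests, Benjamini-Hochberg adjustment across the 5760 spots and a threshold of 0.05.

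The genes, gene lists and comparisons were chosen with earlier results of these data known. Named genes were the pair, the 6 spots with 1 symbol most correlated with each over 13 groups, and listed protease and inhibitor genes that passed for macrophage lines over mesenchymal lines, macrophages over stroma-vascular cells or stroma-vascular cells over adipocytes. The scripts were tested on simulated data. The labels do not pair stroma-vascular cells with adipocytes. By replicate number the correlations of their deviations were 0.259, 0.102 and 0.386. Separate cultures, 3T3-F442A day 7 and C2C12 day 7, gave 0.2 and 0.217, so whether the numbers mark true pairs is not known. Alternatives covered scaling, offset, background, variance model, spots, samples and blocks.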

Additional observations from a re-analysis of the deposited data

How the results depend on the processing

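Over 178 alternative values of both genes in the 5 comparisons of macrophages with stroma-vascular cells, adipocytes, preadipocyte lines and macrophage lines and of stroma-vascular cells with adipocytes, 0 changed sign. Their size depended on how dim spots were treated. For stroma-vascular cells over adipocytes, Serpinb2 and Slpi moved to 4.25 and 2.76 with the 5th percentile subtracted, 1.69 and 0.69 with a floor, 0.56 and 0.22 with 4 times the offset and 1.06 and 0.37 with the local trend removed, and Serpinb2 to 1.29 with median scaling and 1.25 with none. For macrophages over stroma-vascular cells they moved to 1.04 and 3.01, 0.84 and 2.17, and 0.44 and 1.02 under the first 3 settings and to 0.86 and 2.02 with no scaling, and Serpinb2 to 0.51 with median scaling. For macrophages over macrophage lines they moved to 3.21 and 2.93, 2.08 and 2.05, 0.87 and 0.97, and 1.82 and 1.90 (no scaling).

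Of 368 alternative values of the tests, 31 changed sign and 5 passed the threshold in the main direction. Those that passed were Slpi in C3H-10T1/2 over preadipocyte lines with a floor (-1.05), a trended robust variance (-0.66) and bright spots only (-0.66), where leaving out single samples gave -0.72 to -0.53 with 1 pass, and Slpi in Raw 264 over J774 without the local trend (-0.64). Median scaling turned Serpinb2 to -0.019 in C2C12 day 7 over proliferating, 0.037 in 3T3-F442A day 7 over C2C12 day 7 and 0.027 in proliferating C2C12 over mesenchymal lines. With no scaling, which shifts the median of all spots by up to -1.53, sign changes were -0.21 and -0.067 (Serpinb2 and Slpi, C2C12 day 7 over proliferating), 0.96 and 0.85 (tibialis over C2C12 day 7), -1.21 and -1.30 (liver over tibialis), 0.23 and 0.042 (proliferating C2C12 over mesenchymal lines), 0.30 and 0.27 (ZIN40 with LIF over mesenchymal lines), 0.29 and 0.26 (adipocytes over liver), 0.32 for Serpinb2 (3T3-F442A day 7 over C2C12 day 7), 0.24 for Slpi (3T3-F442A day 7 over preadipocyte lines) and 0.12 for Slpi (stroma-vascular cells over preadipocyte lines). A floor gave 0.047 for Serpinb2 in proliferating C2C12 over mesenchymal lines, and a subtracted 5th percentile 0.31 in 3T3-F442A day 7 over C2C12 day 7. Removing the local trend gave -0.028 for Slpi (C2C12 day 7 over proliferating), 0.014 for Serpinb2 (proliferating C2C12 over mesenchymal lines) and 0.0073 for Slpi (adipocytes over tibialis). Leaving out single samples gave Serpinb2 ranges that crossed 0, of -0.11 to 0.27 (C2C12 day 7 over proliferating), -0.19 to 0.18 (3T3-F442A day 7 over C2C12 day 7), -0.078 to 0.10 (proliferating C2C12 over mesenchymal lines) and -0.062 to 0.013 (adipocytes over tibialis), and a Slpi range of -0.025 to 0.26 (liver over tibialis). Apart from the settings that change how dim spots or array scale are treated, the cause was not tested.

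Of the listed protease and inhibitor genes, 2 passed for macrophage lines over mesenchymal lines, against 0 with median scaling, no scaling or without the ZIN40 arrays lacking LIF. For liver over tibialis 3 passed, against 1 with median scaling and 21 with none (108, 18 and 5632 of all 5760 spots), and for macrophages over macrophage lines 1 passed, against 0 with either. Of the 6 spots nearest to each gene, 0 for Serpinb2 and 2 for Slpi were shared with a Spearman correlation. Taking the mean of several spots per gene changes nothing for Serpinb2 and Slpi, which have 1 spot each.

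The replicate number was also used as a block, in the compared groups alone. The difference between stroma-vascular cells and adipocytes is then the same by construction, since all 3 numbers occur in both groups. It was 1.14 ± 0.08 for Serpinb2 and 0.52 ± 0.10 for Slpi, while the spots that passed rose from 36 to 231 (112 without the block). Whether these numbers mark true pairs is not known. In the other comparisons too, the samples share a number and no known pairing. There the block took spots passing for tibialis over C2C12 day 7 from 27 to 184. It turned Serpinb2 in 3T3-F442A day 7 over C2C12 day 7 to 0.010 and changed no call of either gene. For liver over tibialis, whose numbers correlate at -0.111, the crossed pairing, added after seeing the data, passed 4 spots against 6 with the block and 2 without.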
